A study of Rattus norvegicus with 8 samples.

Results

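The genes described here build the extracellular matrix of connective tissue: fibrillar collagens with the collagens that coat or link fibrils, basement membrane components, small leucine-rich proteoglycans, and matrix glycoproteins with the elastic fibre. The members were 45 named genes, listed by symbol when earlier results of these data were known. Of these, 43 had a probe set annotated to that symbol alone, out of 14217 genes with such a probe set. Tnxb and Col4a3 had none and were dropped. Where a gene had several probe sets, the brightest one on average over the single animals was taken. Values are log2 expression after GCRMA, an algorithm that corrects array intensities for background and probe sequence, and every difference below is the mean log2 value of DHT-treated rats minus that of control rats unless another quantity is named.

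Female Sprague-Dawley rats carried a silicone capsule that released 5α-dihydrotestosterone (DHT), an androgen that cannot be converted to oestrogen, for 12 weeks, and control rats (CTL) carried an empty capsule. The ovaries were taken at 15 weeks of age as a model of hyperandrogenic polycystic ovary syndrome, and RNA of 3 DHT and 3 CTL animals was read on 1 Affymetrix rat array each. A further array per group, replicate 4 in the labels, held equal amounts of RNA from the same 3 animals and was kept out of the tests. The labels give the tissue as ovary and the design text gives ovarian cortex, so RNA of every cortical cell type is mixed, and the study's account of the animals states that DHT ovaries had few or no corpora lutea, a tissue rich in vessels.

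Fibrillar collagens are secreted as triple-helical precursors, trimmed outside the cell and cross-linked by lysyl oxidase into fibres that give a tissue its tensile strength. Basement membranes are thin sheets in which a laminin network and a collagen IV network are joined by nidogens and perlecan, and in the ovary they enclose each follicle and surround vessels. Small proteoglycans such as decorin and lumican bind collagen fibrils and set their width and spacing, and the cortical stroma, theca and tunica albuginea of the ovary are rich in all of these proteins.

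CTL replicate 3 stood apart from the other control arrays. Its 3′ minus 5′ difference for the Gapdh control probe sets, which grows as the labelled RNA gets shorter, was 3.49 log2 units, against 0.39 and 0.62 in CTL replicates 1 and 2 and 2.99 to 3.98 in the 3 DHT animals, so that this measure moved with the group as well. It was the lowest of the 6 arrays for 31 of the 43 matrix genes, or 72.1%, against 21.7% of all probe sets and 47.4% of the genes above background on every array. The median matrix gene lay 1.27 log2 units lower in CTL replicate 3 than in the mean of the other CTL animals. Of the measured markers, 0 of 7 granulosa, 0 of 5 theca and 2 of 6 oocyte genes were near background on all 6 arrays. Their differences ran from -2.91 to 1.79 for granulosa, -3.17 to 3.11 for theca and -0.09 to 1.55 for oocyte markers. The summed level of pancreatic acinar markers was 9.22 to 10.84 log2 units in DHT against 5.77 to 6.13 in CTL animals (4 of its 7 measured genes were near background on all 6 arrays). Only Cpa1 and Ctrb1 of that list were clearly higher, with differences of 5.03 and 4.23. The other measured acinar genes ran from -0.20 to 0.03, and the median of the list was -0.04. The part of these differences in the matrix values was not tested, and the differences of matrix genes are given with and without CTL replicate 3.

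No matrix gene met the criteria of the comparison, which were at least a 2-fold change, a limma p of at most 0.01 and an FDR of at most 10%, where 1.03% of all 31042 probe sets did (0.68% higher, 0.351% lower). With no limit on the fold, 0 of 43 had an adjusted p of 0.10 or less, against 1.87% of all probe sets. At an unadjusted p under 0.05 there were 6 of 43 genes, all higher in DHT (Col14a1, Lama2, Lama4, Lamc1, Lum and Lox), against a background of 11.9% of all probe sets in either direction, 7.94% higher and 3.92% lower. A mean change of 2-fold or more, tested or not, was seen for Dcn, Lum, Vcan and Lox, or 9.3% against 5.86% of all probe sets. The difference was positive for 34 genes and negative for 9, with a median of 0.49, while the median over all probe sets was -0.029 and that over genes above background on every array was 0.161. All 3 DHT values lay above all 3 CTL values for 10 genes, or 23.3%, and below them for 0. The corresponding backgrounds over all probe sets were 10.6% and 6.85%, and over the brightest probe sets of genes 14.3% and 6.81%. Because whole tissue was measured, fewer cells of a type and less RNA per cell cannot be told apart in any of these values.

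With CTL replicate 3 left out, the picture of the group was different. The median difference was 0.05, with 23 genes positive and 20 negative. By their brightest probe sets, Col4a1 and Sparc then met all criteria, both lower in DHT, where 5.23% of all probe sets did (2.11% higher, 3.12% lower). A further probe set of Col4a1 (-1.82) and of Fbn1 (-1.37), both lower, and of Ogn (1.16), higher, did so too. With no limit on the fold, 9 matrix genes had an adjusted p of 0.10 or less without this array, or 20.9% against a background of 15.6%. These were Col14a1, Lama4, Lamc1, Lum and Eln, which were higher in DHT, and Col4a1, Sparc, Mgp and Fbn1, which were lower. The 10 genes that did not overlap between the groups with all arrays also did not overlap without CTL replicate 3, when Eln was added to them. These 11 of 43 genes, or 25.6%, compare with 45.1% of all probe sets that were then higher without overlap, and 8 genes, or 18.6%, were lower without overlap against 16.5% of all probe sets. These backgrounds include dim probe sets. Without CTL replicate 3, 70.5% of all probe sets had a positive difference, against 54.1% of genes above background on every array.

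**Figure D1:**
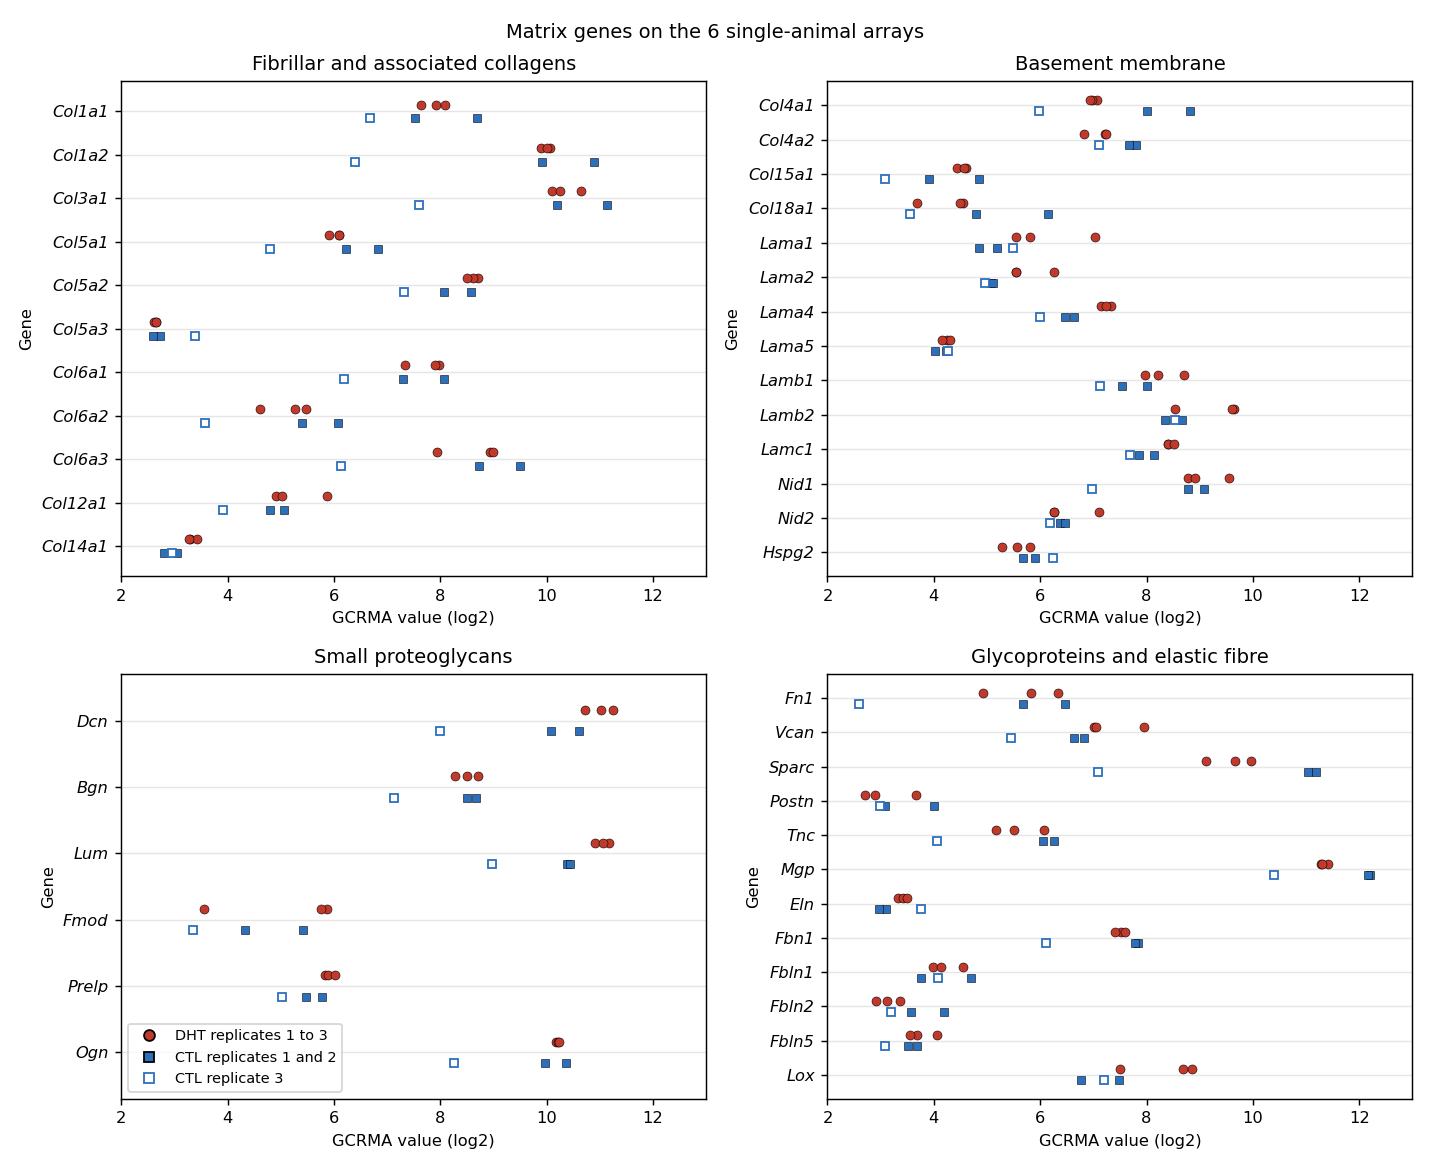
Each row is a matrix gene and the horizontal axis is its GCRMA value (log2) on each single-animal array, in 4 panels by class. Red circles are the 3 DHT animals, filled blue squares CTL replicates 1 and 2, and the open square CTL replicate 3, which is the lowest array for 31 of the 43 genes, among them all 6 small proteoglycans.

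Among the chains of the fibril-forming collagens, no gene separated the groups on all 6 arrays by its brightest probe set. Col1a2, which encodes the α2 chain of collagen I, the main collagen of connective tissue, was at 9.90, 10.07 and 10.01 in the DHT animals and at 10.89, 9.91 and 6.40 in the CTL animals. Its difference of 0.92 was the highest of the class (SE 1.2, limma adjusted p = 0.896), and it was -0.41 without CTL replicate 3 (SE 0.33, adjusted p = 0.462). The DHT values lay close to CTL replicate 2, below CTL replicate 1 and far above CTL replicate 3. Col1a1, the partner chain, differed by 0.25 with and -0.23 without that array, and Col3a1, the collagen of pliable connective tissue that is co-assembled with collagen I, by 0.69 and -0.33.

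The collagen V chains, which start fibrils and limit their width, were split. Col5a2 was at 8.71, 8.61 and 8.51 in DHT animals and at 8.58, 8.07 and 7.31 in CTL animals, a difference of 0.62 (SE 0.33, adjusted p = 0.584), or 0.29 without CTL replicate 3. Its second probe set gave 8.07, 7.87 and 8.22 against 7.30, 7.03 and 7.37, with no overlap and the smallest adjusted p of all 72 probe sets of these genes, 0.0944 for a difference of 0.82 (SE 0.14), which is under the 2-fold limit. That probe set was not lowered in CTL replicate 3, and its difference was 0.89 without that array. Col5a1 differed by 0.08 with and -0.50 without CTL replicate 3. Col5a3 had the lowest difference of the class, -0.26 (SE 0.22, adjusted p = 0.882), from 2.65, 2.61 and 2.66 against 2.73, 2.60 and 3.38, and -0.02 without CTL replicate 3, but its values were near background on 5 of the 6 arrays and hold no reading of direction.

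The collagen VI chains, which form beaded filaments around cells, moved together from array to array. Col6a1, Col6a2 and Col6a3 differed by 0.55, 0.11 and 0.50, and CTL replicate 3 was the lowest array for all 3 of them, with values 1.5, 2.16 and 2.97 log2 units under the mean of the other CTL animals. Without it the differences were 0.05, -0.61 and -0.49. Of the collagens that sit on the surface of fibrils, Col12a1 was at 4.91, 5.03 and 5.86 in DHT and 5.06, 4.80 and 3.91 in CTL animals, a difference of 0.68 (SE 0.41, adjusted p = 0.664), or 0.34 without CTL replicate 3. Col14a1 was at 3.29, 3.43 and 3.28 in DHT and 2.81, 3.04 and 2.95 in CTL animals. Its groups did not overlap, its difference of 0.40 had the smallest p of the class (SE 0.09, adjusted p = 0.150), and it was 0.41 without CTL replicate 3, with an adjusted p of 0.0919. The level of Col14a1 was low, and near background on 1 CTL array.

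In the basement membrane class the collagen IV chains Col4a1 and Col4a2 had negative and the laminin chains positive differences. Col4a1, which with Col4a2 forms the common network of basement membranes, was at 7.07, 6.97 and 6.93 in DHT animals and at 8.82, 8.01 and 5.97 in CTL animals. The difference was -0.61, the lowest of the class (SE 0.75, adjusted p = 0.896), and without CTL replicate 3 it was -1.43 (SE 0.28, adjusted p = 0.0700). The DHT animals were close to each other and lay below CTL replicates 1 and 2 and above CTL replicate 3. A second probe set of Col4a1 gave -0.80 and -1.82, and with the Gapdh covariate described below the difference of Col4a1 was 0.94. Col4a2 was at 7.22, 6.83 and 7.24 in DHT against 7.81, 7.67 and 7.11 in CTL animals, a difference of -0.44 (SE 0.23, adjusted p = 0.570), or -0.65 without CTL replicate 3 (adjusted p = 0.105).

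The collagen IV chains Col4a5 and Col4a6, outside the 43 matrix genes, had positive differences of 1.23 and 1.31. Beside Col4a1 and Col4a2, 7 of 8 measured endothelial markers also had a negative difference, with a median of -0.64, or -1.12 without CTL replicate 3. The summed level of that list was 7.96 to 8.57 log2 units in DHT and 8.66 to 9.47 in CTL animals. All 6 measured corpus luteum markers had a negative difference, at summed levels of 9.97 to 11.67 in DHT against 12.68 to 14.31 in CTL animals. The part of vessels and luteal tissue in the values of Col4a1 and Col4a2 was not tested.

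The 7 laminin chains had positive differences with all arrays and without CTL replicate 3. Lama5 was close to 0 and changed sign elsewhere, with -0.03 after quantile normalization, -0.05 between the pools, -0.01 without CTL replicate 2 and -0.00 when probe sets were averaged. Their median was 0.74 and 0.69 without CTL replicate 3, a smaller shift than in any other subgroup with over 1 gene. Lama4, an α chain of vessel and muscle basement membranes, was at 7.14, 7.34 and 7.23 in DHT and 6.63, 6.47 and 6.0 in CTL animals, without overlap, a difference of 0.87 (SE 0.18, adjusted p = 0.136). Without CTL replicate 3 the difference of Lama4 was 0.69 (SE 0.08, adjusted p = 0.0368), which is under the 2-fold limit. Lamc1, the γ chain shared by most laminin trimers, was at 8.41, 8.40 and 8.52 in DHT and 7.85, 8.14 and 7.68 in CTL animals, a difference of 0.55 (SE 0.13, adjusted p = 0.179), again without overlap, or 0.44 without CTL replicate 3 (adjusted p = 0.0989).

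Lama2, the α chain of muscle and stromal basement membranes, was at 5.55, 5.54 and 6.26 in DHT and 5.07, 5.12 and 4.97 in CTL animals, and its groups did not overlap. The difference of Lama2 was 0.73 (SE 0.22, adjusted p = 0.278), or 0.69 without CTL replicate 3. Lama1, an α chain of early and epithelial basement membranes, had the highest difference of the class, 0.95 (SE 0.44, adjusted p = 0.494), from 5.81, 5.54 and 7.03 in DHT and 4.84, 5.19 and 5.49 in CTL animals. The groups of Lama1 were parted by only the small step from 5.49 to 5.54, and DHT replicate 3 was far above the other animals. Without CTL replicate 3 the difference of Lama1 was 1.11. The β chains Lamb1 and Lamb2 differed by 0.74 and 0.75 (adjusted p = 0.423 and 0.476) with overlapping groups, or by 0.53 and 0.76 without CTL replicate 3. Lama5, the α chain of many adult epithelial and vessel basement membranes, differed by 0.06 and 0.11.

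**Figure D2:**
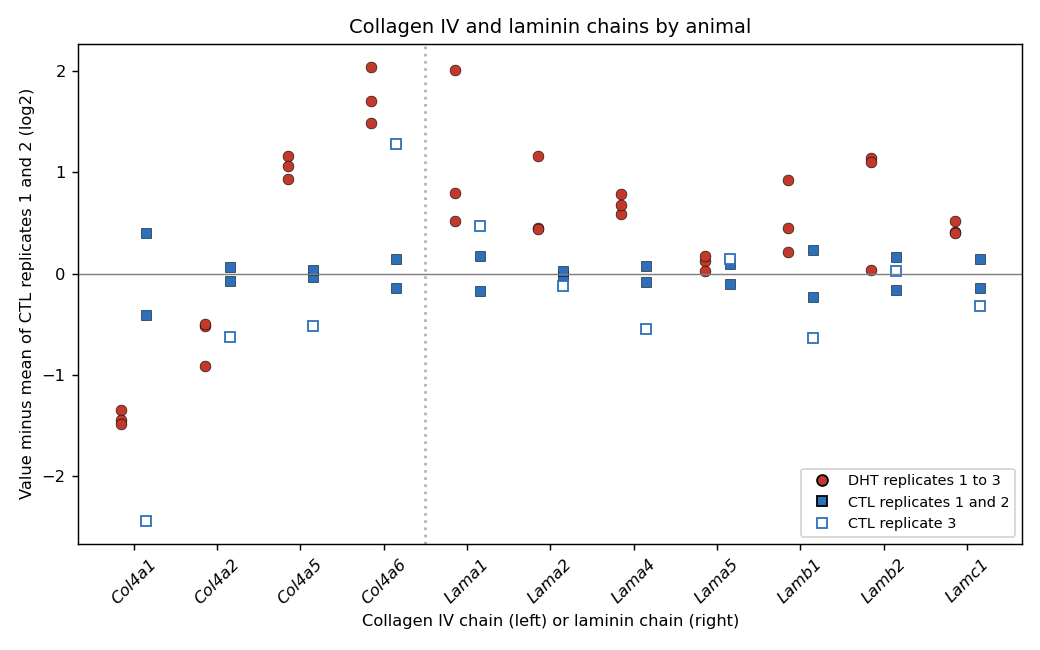
The vertical axis is the value of each single animal minus the mean of CTL replicates 1 and 2 (log2), for 4 collagen IV chains on the left and 7 laminin chains on the right. Col4a1 and Col4a2 lie below CTL replicates 1 and 2 in all 3 DHT animals, while Col4a5, Lama2, Lama4 and Lamc1 lie above every CTL animal; Col4a5 and Col4a6 are collagens outside the 43 matrix genes.

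The 4 laminin genes whose groups did not overlap were picked by their values, and none met the criteria of the comparison. The bases upstream of them, and the stretch between Col4a2 and Col4a1 from which both genes start, are given as a description. They were not tested against the direction of any gene. The bases are from RefSeq on the build GRCr8, 5′ to 3′ on the strand of the gene, and capitals mark matches on either strand to 4 short motifs. These were the TATA box, read as TATAAA, the GC box, read as GGGCGG, the pentamer CCAAT, and the SMAD box, read as CAGACA. For the laminins they are the 250 bases before the annotated start, at chr9:115139298-115139547 (Lama1), chr1:19491896-19492145 (Lama2), chr20:43946648-43946897 (Lama4) and, on the minus strand, chr13:68051987-68052236 (Lamc1). The 76 bases at chr16:84885521-84885596 lie between the genes of Col4a2 and Col4a1 and are given on the plus strand.
Lama1: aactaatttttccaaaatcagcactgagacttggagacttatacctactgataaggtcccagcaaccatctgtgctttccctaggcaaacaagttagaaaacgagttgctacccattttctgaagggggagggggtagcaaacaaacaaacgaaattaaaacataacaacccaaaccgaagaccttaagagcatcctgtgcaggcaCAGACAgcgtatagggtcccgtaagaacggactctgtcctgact
Lama2: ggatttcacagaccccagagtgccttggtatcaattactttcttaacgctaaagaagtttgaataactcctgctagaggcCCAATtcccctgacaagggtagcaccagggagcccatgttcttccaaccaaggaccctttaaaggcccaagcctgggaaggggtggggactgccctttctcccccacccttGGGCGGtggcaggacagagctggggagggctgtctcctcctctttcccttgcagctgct
Lama4: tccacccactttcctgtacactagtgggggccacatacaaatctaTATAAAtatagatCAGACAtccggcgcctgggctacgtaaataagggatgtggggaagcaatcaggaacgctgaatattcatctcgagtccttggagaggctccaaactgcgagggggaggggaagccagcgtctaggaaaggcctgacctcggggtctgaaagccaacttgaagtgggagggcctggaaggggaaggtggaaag
Lamc1: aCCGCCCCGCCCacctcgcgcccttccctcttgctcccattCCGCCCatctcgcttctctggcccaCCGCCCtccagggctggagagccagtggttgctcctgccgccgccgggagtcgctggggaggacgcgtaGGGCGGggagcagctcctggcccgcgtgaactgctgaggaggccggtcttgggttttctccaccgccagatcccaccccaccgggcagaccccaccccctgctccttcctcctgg
between Col4a2 and Col4a1: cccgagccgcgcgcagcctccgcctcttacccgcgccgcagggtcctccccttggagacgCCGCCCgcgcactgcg
The Lamc1 stretch held 5 matches to the GC box and no other motif, with some matches overlapping or adjoining, Lama4 held 1 TATA box and 1 SMAD box, Lama1 1 SMAD box, and Lama2 1 GC box and 1 match to CCAAT. Over the 300-base windows from 250 bases before to 50 after the start, available for 28 matrix genes, 16 held a GC box (33.1% of all 33469 windows did), 11 the pentamer (37.5%), 7 a SMAD box (21.1%) and 5 a TATA box (14.2%). The palindrome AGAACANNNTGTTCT, the androgen response element in its full form, was in 0 of the 28 and in 0.0149% of all windows. A match is a description of letters and not of a bound site. Besides Col4a1 and Col4a2, Dcn and Lum are neighbours on the chromosome with no gene between them, as are Col3a1 and Col5a2, and no protein-coding gene lies between Prelp and Fmod or between Col6a1 and Col6a2.

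Of the components that link the networks, Nid1 differed by 0.80 with and 0.15 without CTL replicate 3, and Nid2 by 0.20 and 0.11. Hspg2, perlecan, a large heparan sulphate proteoglycan, differed by -0.40 (SE 0.20, adjusted p = 0.559), or -0.25 without CTL replicate 3, and CTL replicate 3, at 6.25, was its highest array. The multiplexin collagens of the basement membrane zone were split: Col15a1 differed by 0.59 and Col18a1, whose fragment endostatin restrains vessel growth, by -0.59, or by 0.16 and -1.22 without CTL replicate 3. The median of the class was 0.57 over 14 genes and 0.16 without that array.

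All 6 small proteoglycans had a positive difference, with a median of 0.69, and CTL replicate 3 was the lowest array for each of them. Lum, lumican, was at 10.91, 11.17 and 11.05 in DHT animals and at 10.39, 10.44 and 8.98 in CTL animals, without overlap. Its difference was 1.11 (SE 0.43, adjusted p = 0.412), or 0.63 without CTL replicate 3 (SE 0.09, adjusted p = 0.0445), and the DHT animals stayed above both remaining controls. Dcn, decorin, which also binds growth factors such as TGF-β, had the highest difference of all 43 genes, 1.44 (SE 0.71, adjusted p = 0.537), from 10.72, 11.24 and 11.03 against 10.60, 10.09 and 8.00. The groups of Dcn did not overlap, and the difference was 0.66 without CTL replicate 3 (adjusted p = 0.210).

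Prelp, which anchors basement membranes to connective tissue, was at 5.84, 5.88 and 6.02 in DHT and at 5.77, 5.47 and 5.02 in CTL animals. Its difference was 0.49 (SE 0.20, adjusted p = 0.445), or 0.29 without CTL replicate 3, without overlap but with a step of less than 0.1 between the nearest animals. Bgn, biglycan, had the lowest difference of the class, 0.39 (SE 0.45, adjusted p = 0.896), or -0.09 without CTL replicate 3, and its values of 8.28, 8.50 and 8.71 against 8.68, 8.50 and 7.13 overlapped. Fmod, fibromodulin, differed by 0.69, or 0.19 without CTL replicate 3, with a wide spread, as DHT replicate 3 was at 3.56 and the other DHT animals were at 5.87 and 5.76. Ogn, osteoglycin, differed by 0.68, or 0.04 without CTL replicate 3, but its 4 probe sets ran from -0.40 to 1.77. A second probe set of Ogn was at 10.59, 10.51 and 10.08 in DHT and 9.02, 9.45 and 9.55 in CTL animals, without overlap. It differed by 1.06 (adjusted p = 0.123), and was called without CTL replicate 3 at 1.16 (adjusted p = 0.0754). Another differed by 1.77, or 1.07 without that array, also without overlap, and the dimmest by -0.40, or -0.67. Without CTL replicate 3 the median of the 6 was 0.24.

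**Figure D3:**
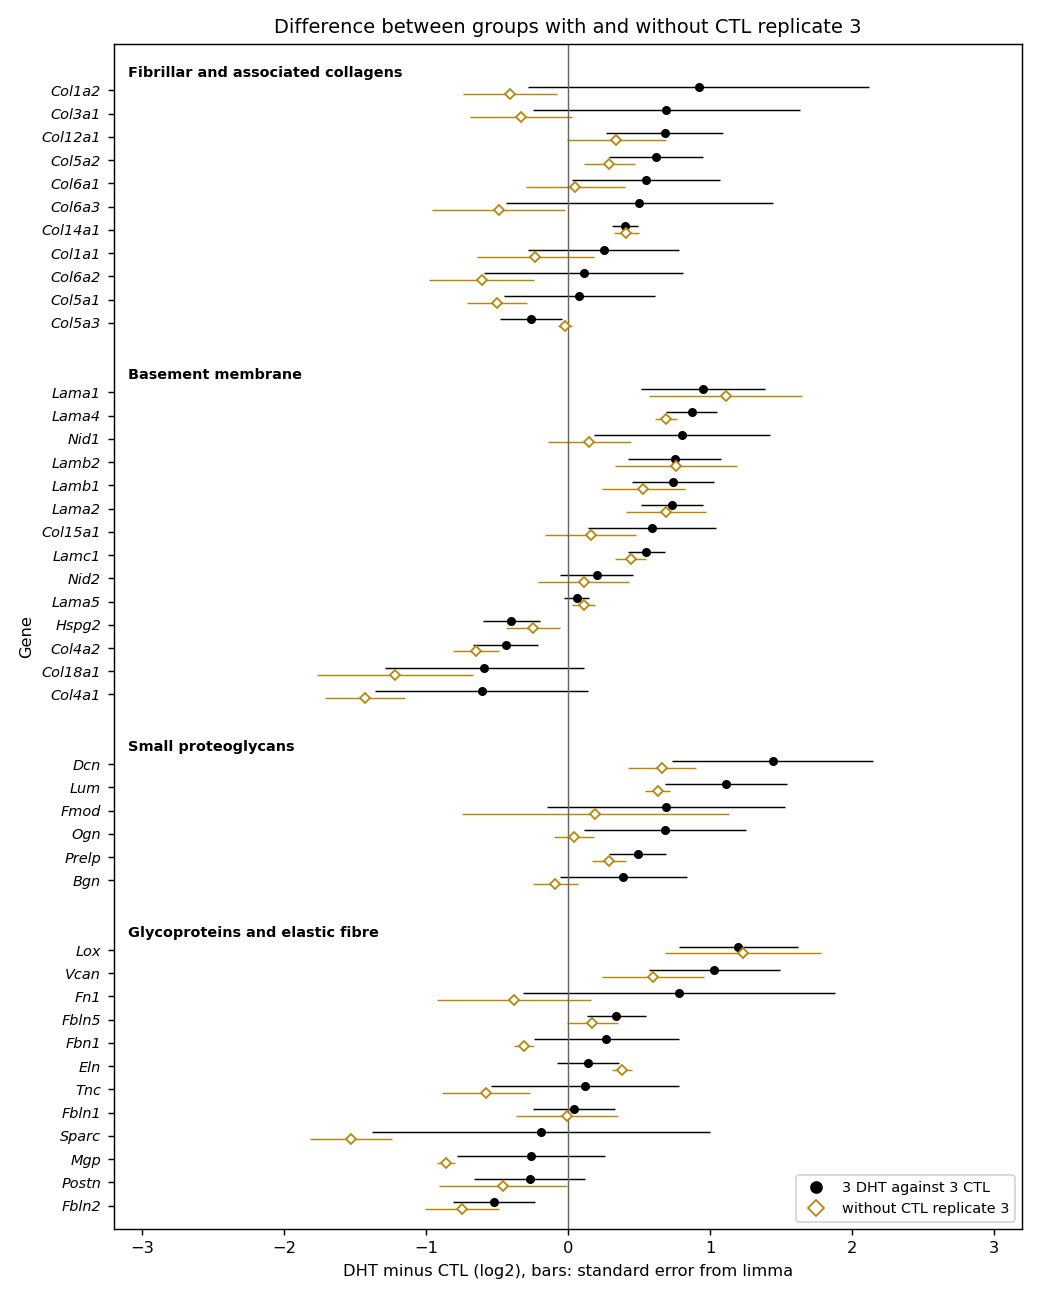
The horizontal axis is the DHT minus CTL difference (log2) of each matrix gene, with limma's standard error as a bar, over all 6 arrays (filled circles) and without CTL replicate 3 (open diamonds). The laminins stay to the right of 0 in both, whereas Col1a1, Col1a2, Col3a1 and 2 of the collagen VI chains cross from the right to the left of 0 when that array is left out.

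The glycoproteins and the elastic fibre were the most mixed class, with a median of 0.13 over 12 genes and of -0.34 without CTL replicate 3. Lox, lysyl oxidase, which starts the cross-linking of collagen and elastin, was at 8.86, 8.68 and 7.5 in DHT animals and at 7.48, 6.76 and 7.20 in CTL animals. Its difference was 1.2, the highest of the class (SE 0.42, adjusted p = 0.360), and 1.23 without CTL replicate 3. The groups of Lox touched without overlap, as DHT replicate 3 lay just above CTL replicate 1. A second probe set of Lox, at 8.33, 8.73 and 6.79 against 8.26, 7.32 and 4.07, overlapped between the groups and differed by 1.4 with and 0.16 without CTL replicate 3. With the pooled arrays counted as replicate 4, Lox was the only matrix gene called, where 3.11% of all probe sets were, 1.72% higher and 1.39% lower (difference 1.22, adjusted p = 0.0722), although those arrays hold RNA of the same animals.

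Vcan, versican, a large proteoglycan of expanding and loose matrix, was at 7.02, 7.04 and 7.95 in DHT and at 6.83, 6.64 and 5.46 in CTL animals, a difference of 1.03 (SE 0.46, adjusted p = 0.486) without overlap, or 0.60 without CTL replicate 3. Its other probe sets above background on every array had differences of 0.98, 1.11 and 0.10. Fn1, fibronectin, differed by 0.78 with and -0.38 without CTL replicate 3, in which it was near background. Tnc, tenascin C, differed by 0.12 and -0.58 and Postn, periostin, by -0.27 and -0.46.

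Sparc and Mgp, chosen after their values were seen, had the DHT animals between CTL replicate 3 and the other controls, as Col4a1 did. Sparc, a collagen-binding glycoprotein that aids the assembly of collagen IV, was at 9.67, 9.96 and 9.11 in DHT animals and at 11.18, 11.04 and 7.09 in CTL animals. Its difference was -0.19 with all arrays (SE 1.19, adjusted p = 0.946) and -1.53 without CTL replicate 3 (SE 0.29, adjusted p = 0.0685). A second probe set of Sparc differed by 0.12 with all arrays. Without CTL replicate 3 that probe set was at -0.58, under the 2-fold limit, and was not called. Mgp, matrix Gla protein, an inhibitor of calcification, was at 11.28, 11.42 and 11.29 in DHT and at 12.20, 12.17 and 10.40 in CTL animals, a difference of -0.26 (adjusted p = 0.896) that was -0.86 without CTL replicate 3 (SE 0.06, adjusted p = 0.0182).

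Among the fibulins, which bridge elastic fibres and basement membranes, Fbln2 had the lowest difference of the class, -0.52 (SE 0.29, adjusted p = 0.606), from 3.36, 3.11 and 2.92 in DHT and 3.57, 4.20 and 3.19 in CTL animals. The groups of Fbln2 overlapped only through CTL replicate 3, and the difference was -0.75 without it. Fbln1 differed by 0.04 with and -0.01 without that array and Fbln5 by 0.34 and 0.17. Eln, elastin, differed by 0.14 at a low level, and by 0.38 without CTL replicate 3 (adjusted p = 0.0719). Its other probe set had the opposite sign, with 3.07, 3.00 and 3.03 in DHT below 3.21, 3.61 and 3.10 in CTL animals, a difference of -0.28, or -0.38 without that array. Fbn1, fibrillin-1 of the microfibrils, differed by 0.27 on its brightest probe set and by -0.81 on the other, and by -0.31 and -1.37 without CTL replicate 3. The other probe set of Fbn1 was then called (adjusted p = 0.0262).

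The pooled arrays were made from equal amounts of RNA of the same animals. For the 37 genes above background on all 6 arrays, the CTL pool was within 0.5 log2 units of the log2 of the linear mean of the 3 CTL animals for 34 genes and the DHT pool for all 37. The median gene of the CTL pool was 0.16 above that mean, and a tolerance of this size cannot tell whether CTL replicate 3 had its full share of the pool. Between the pools the median difference of the matrix genes was 0.07, and 27 of 43 were positive. The sign was opposite to that between single animals for Col3a1 (-0.22), Col5a1 (-0.11), Col6a2 (-0.20), Lama5 (-0.05), Bgn (-0.24), Fn1 (-0.23) and Tnc (-0.33), and Col1a2 and Fbln1 were at 0.00. Lama1 and Lox were 1.28 and Dcn was 1.17 log2 units higher in the DHT pool, and Fbln2 differed by -1.19. Of all probe sets, 2.26% were 2-fold or more above and 3.52% below. The laminins had a median of 0.55 between the pools, collagen IV -0.72, the small proteoglycans 0.43 and the fibrillar class 0.02. The means on the linear scale, an alternative chosen after the data were seen, gave a median of 0.25 over all 43 genes. These single arrays carry no test.

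**Figure D4:**
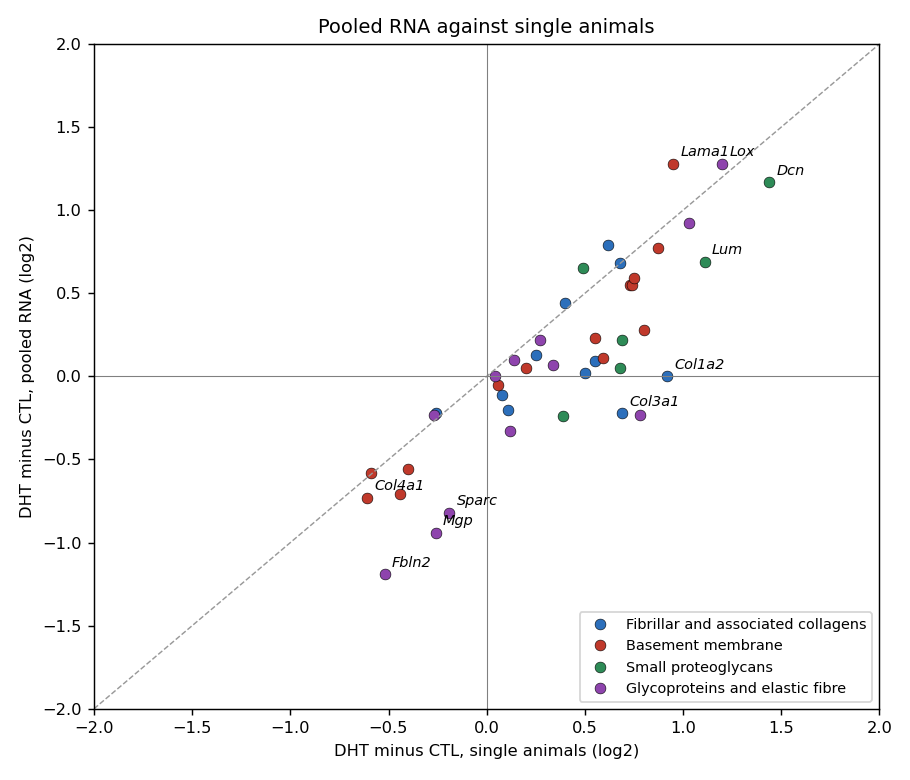
Each point is a matrix gene, with its DHT minus CTL difference between single animals on the horizontal axis and between the pooled arrays on the vertical axis, both log2, coloured by class; the dashed line marks equal values. Lama1, Lox and Dcn are the highest between the pools, where Lum and Vcan lie above Lama1 between single animals, whereas Col1a2, at 0.92 between animals, is at 0.00 between the pools.

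With the Gapdh 3′ minus 5′ difference as a covariate, 11 of the 43 genes were called, all higher in DHT (Col1a2, Col5a2, Col6a1, Col6a3, Lama4, Dcn, Lum, Ogn, Fn1, Sparc and Fbn1), where 12.1% of all probe sets were called, 8.57% higher and 3.5% lower. The median difference of the matrix genes was then 1.2, and their median difference between the DHT animals and CTL replicate 3 alone was 1.22. Col1a2 was at 3.46 and Sparc at 2.44 in that fit. The covariate was high in CTL replicate 3 and in all DHT animals and low in the other controls, so that RNA length and group cannot be fully told apart.

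Of 22 matrix genes with several probe sets, 29 further probe sets could be read, of which 20 were above background on at least 1 array, and 13 of these had the sign of the brightest one. None of the 72 probe sets was called in the limma fit of all single-animal arrays. The disagreements were in Ogn, Eln, Fbn1, Sparc and several probe sets close to background, while both probe sets of Col1a1, Col1a2, Col4a1, Col18a1 and Lox had the same sign.

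By the median, the machinery of matrix production gave the same kind of picture as the collagens. Of 18 measured genes of collagen synthesis and processing none was called, 15 had a positive difference and the median was 0.57, or 0.08 without CTL replicate 3, which was the lowest array for 12 of them. The smallest p values belonged to P4ha3, a prolyl hydroxylase subunit, at 2.97, 3.08 and 3.87 against 2.40, 2.31 and 2.59 (difference 0.87, adjusted p = 0.281), and to Bmp1, which trims procollagen, at 5.78, 5.57 and 4.98 against 4.93, 4.83 and 4.17 (difference 0.80, adjusted p = 0.399). Neither overlapped between the groups, and P4ha3 was near background on all 3 CTL arrays. Plod2 had the highest difference of this list, 1.53 (SE 0.7, adjusted p = 0.488). It was at 9.53, 9.71 and 9.42 in DHT and 8.78, 8.83 and 6.45 in CTL animals, without overlap. Without CTL replicate 3 the difference of Plod2 was 0.75 (SE 0.1, adjusted p = 0.0413), which is under the 2-fold limit. Among 15 genes of cross-linking and fibre assembly none was called either, and Efemp2, a fibulin needed for elastic fibres, differed by 0.53 (adjusted p = 0.389) and Loxl1, a relative of Lox, by -0.50 (adjusted p = 0.471). Without CTL replicate 3, Mfap5, a microfibril glycoprotein, was called at 1.52 (adjusted p = 0.0337), from 1.01 with all arrays.

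None of 21 matrix receptors was called with all arrays. Ddr2, the receptor kinase for fibrillar collagens, was at 5.57, 5.73 and 5.57 in DHT and 5.37, 5.25 and 5.31 in CTL animals, a difference of 0.31 (SE 0.07, adjusted p = 0.176) without overlap. Sdc1, syndecan-1, a heparan sulphate proteoglycan of the cell surface, was at 4.27, 5.38 and 4.55 in DHT and 8.69, 8.18 and 5.54 in CTL animals. Its difference was -2.74 (SE 0.91, adjusted p = 0.326), and without CTL replicate 3 it was called at -3.71 (adjusted p = 0.0329). Dag1, dystroglycan, a laminin receptor, was then also called, at -1.45 (adjusted p = 0.0561) from -0.39 with all arrays.

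Among 18 other collagens, 2 were called higher and 0 lower in DHT, where 0.68% of all probe sets were called higher and 0.351% lower. Of the 18, 10 were near background on all 6 arrays. Col11a1, a chain that nucleates fibrils together with collagen V, was at 8.69, 8.73 and 8.85 in DHT and 7.55, 7.56 and 7.43 in CTL animals, a difference of 1.24 (SE 0.08, adjusted p = 0.0389). Col4a5, a collagen IV chain that forms networks with Col4a6 or with Col4a3 and Col4a4, was at 9.71, 9.61 and 9.48 in DHT and 8.51, 8.58 and 8.03 in CTL animals, a difference of 1.23 (SE 0.17, adjusted p = 0.0691). In both genes the groups were far apart. CTL replicate 3 was the lowest array for both, and without it the differences were 1.2 and 1.06 (adjusted p = 0.0119 and 0.0208). Col4a6 was at 6.37, 6.15 and 6.71 against 4.52, 4.81 and 5.95, a difference of 1.31 (SE 0.41, adjusted p = 0.293) without overlap, and without CTL replicate 3 it was called at 1.74 (adjusted p = 0.0357). Col13a1, a transmembrane collagen, lay the other way without overlap, at 3.17, 3.18 and 3.34 in DHT and 3.53, 4.84 and 5.62 in CTL animals, a difference of -1.43 (SE 0.54, adjusted p = 0.399), or -0.95 without CTL replicate 3. Col4a4 was near background. The calls are fragile at this number of animals: without any of the 3 DHT animals the adjusted p was 0.155 to 0.254 for Col11a1 and 0.206 to 0.290 for Col4a5, and without CTL replicate 1 or 2 it was 0.133 and 0.126 for Col4a5.

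Of 10 fibroblast and stroma markers, 7 had a positive and 3 a negative difference, with a median of 0.25, or -0.06 without CTL replicate 3. Without overlap, 4 were higher (Pdgfra, Nr2f2, Dpt and Pdpn) and 1 was lower (Thy1), against 10.6% and 6.85% of all probe sets. Without CTL replicate 3 there were 4 higher and 3 lower, against 45.1% and 16.5%. Nr2f2, Dpt and Pdpn differed by 1.04, 1.19 and 0.84, and none of these was called. Thy1, a surface protein of fibroblasts and other cells, fell, from 4.71, 4.18 and 4.92 in CTL to 2.85, 2.95 and 2.75 in DHT animals (difference -1.76, SE 0.21, adjusted p = 0.0581). Pdgfra, the receptor that marks fibroblasts, was at 9.44, 9.40 and 9.62 in DHT and 8.55, 8.86 and 8.73 in CTL animals, a difference of 0.78 (SE 0.11, adjusted p = 0.0708) that is under the 2-fold limit. The summed level of the list was 11.76 to 11.92 in DHT and 11.85, 11.28 and 10.68 in CTL replicates 1, 2 and 3. For 8 smooth muscle markers the summed level was 10.26 to 11.11 in DHT and 10.69, 10.78 and 9.19 in the CTL replicates, with CTL replicate 3 the lowest array for 7 of them. All 8 macrophage markers had a negative difference, at summed levels of 9.60 to 10.08 in DHT and 9.79 to 11.25 in CTL animals. The part of these cell types in the matrix values was not tested.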

How the data were processed

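RNA of rat ovaries, 3 DHT and 3 CTL animals and 1 pool of each group, was amplified with a 3′ IVT kit and read on 8 Affymetrix arrays. Before deposit, the authors corrected, normalized and summarized the intensities with GCRMA, so that each deposited value is a log2 level of 1 probe set; raw intensities were not processed here. After 57 controls were left out, 31042 probe sets were fitted in R 4.3.3 by limma 3.58.1 (lmFit, then eBayes), 3 DHT against 3 CTL arrays, with Benjamini-Hochberg adjustment over all of them; a p given for a left-out array, the pooled arrays or the covariate is from the same fit on those arrays or with that term. Near background means at or below the 95th percentile of 29 sensory receptor probe sets on that array. Gene names come from the platform annotation: 20826 probe sets carry 1 symbol, 436 several and 9780 none. A summed level is the log2 of the summed linear values of a list.

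The matrix genes, classes and further lists were chosen with earlier results of these data known. Every matrix gene is named. Values per animal are given for the 3 smallest p and both extremes of each class, and from the further lists for genes called and those with the smallest p. Sparc, Mgp, Col4a2, Col4a6, Col13a1, Mfap5, Dag1, Plod2 and second probe sets were added after their values were seen. So were the markers Cpa1, Ctrb1, Nr2f2, Dpt and Pdpn. The fit was checked on simulated data. Alternatives were the pooled arrays, a replicate block, other normalizations, filters and criteria, the mean of a gene's probe sets, the Gapdh covariate and each array left out. An exact permutation test of 3 against 3 animals cannot go below p = 0.1 and was not used. The number of arrays limits the precision.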

Additional observations from a re-analysis of the deposited data

Results flagged for a closer look

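The pooled arrays stand outside the comparison of single animals, and 3 matrix genes were 2-fold or more higher in the pooled DHT RNA than in the pooled CTL RNA. The log2 difference was 1.28 for Lama1, 1.17 for Dcn and 1.28 for Lox. There is 1 pool per group, made from the same animals, so these values have no test and are no independent support, and 2.26% of all probe sets were as far above the pooled CTL RNA.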

How the results depend on the processing

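With 3 animals a group and 1 control that stood apart, the direction of many matrix genes rests on single arrays. Members called lower ranged from 0 to 2 when each array was left out (2 without CTL replicate 3), and members called higher were 0 except for 1 with the pooled arrays as replicate 4 and 11 with the Gapdh covariate. The median of the fibrillar class, 0.50, ranged from -0.23 to 0.91 without single arrays, and that of the basement membrane class, 0.57, from 0.16 to 0.63; the latter was 0.20 when the probe sets of a gene were averaged and 0.17 between the pools. With the Gapdh covariate the medians were 1.29 for the fibrillar class, 1.88 for small proteoglycans, 1.08 for glycoproteins and 1.2 for all members.

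In the further lists, genes called lower numbered 0, but 2 with the pooled arrays, 3 with the Gapdh covariate and 0 to 2 without single arrays. Those called higher, 2, were 1 with quantile normalization, median scaling or an adjusted p of 0.05, 0 with a mean-variance trend, 15 with the Gapdh covariate and 0 to 4 without single arrays. Col11a1 lost its call with quantile normalization, the trend, averaged probe sets and the block, and Col4a5 with median scaling, the trend and the block. The deviations of same-numbered animals correlated at -0.07, 0.44 and 0.34. With 3 animals a group, these values cannot tell whether the replicate numbers pair the animals. With the replicate number as a block, 0 of all probe sets and 0 of the further lists were called. The medians of the classes could not move in that fit (0.50 for the fibrillar class), as each replicate number holds 1 animal of each group.

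Leaving out single arrays turned the sign of these differences, given as lowest to highest: Col1a1 -0.23 to 0.78, Col1a2 -0.41 to 1.83, Col3a1 -0.33 to 1.43, Col5a1 -0.50 to 0.52, Col6a2 -0.61 to 0.64, Col6a3 -0.49 to 1.19, Bgn -0.09 to 0.68, Fn1 -0.38 to 1.56, Tnc -0.58 to 0.52 and Fbn1 -0.31 to 0.57, each through CTL replicate 3, and Col18a1 -1.22 to 0.07, Lama5 -0.01 to 0.11, Nid2 -0.08 to 0.34, Sparc -1.53 to 0.51, Postn -0.56 to 0.06, Mgp -0.86 to 0.04, Eln -0.01 to 0.38 and Fbln1 -0.16 to 0.30. The Gapdh covariate turned Col4a1 to 0.94, Col18a1 to 0.77, Sparc to 2.44, Postn to 0.01, Mgp to 0.87 and Eln to -0.31. Quantile normalization turned Col5a1 to -0.02, Lama5 to -0.03 and Fbln1 to -0.03, and the mean of all probe sets turned Eln to -0.07, Fbn1 to -0.27, Fbln1 to -0.02 and Lama5 to -0.00. Means on the linear scale put Col5a1 at -0.14, Col6a2 at -0.17 and Tnc at -0.11. The causes were not tested.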
